A study of Mus musculus with 16 samples.

Results

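This comparison sets MyoD1 induction in growth medium against ordinary serum withdrawal: 4 ATAC-seq libraries of cells induced with doxycycline in growth medium (GM +dox, replicates 1 to 4) against 3 libraries of uninduced cells after 24 h in differentiation medium (DM no dox, replicates 2 to 4). The 7 libraries were chosen by their labels, out of 16 in the series. The question was how far the open chromatin of proliferating myoblasts given extra MyoD1 resembled that of myoblasts on their own course of differentiation. C2C12 is an established mouse myoblast line that divides in serum-rich medium and fuses into myotubes once serum is taken away. All cells carried endogenous MyoD1 together with a doxycycline-inducible Halo-MyoD1 transgene. The inducible line was a polyclonal population in which not every nucleus expressed the transgene under doxycycline. Each doxycycline-treated library thus averages over induced and uninduced nuclei. GM +dox cells were seeded at 75000 per well and treated with doxycycline for 24 h. DM no dox cells were seeded at 300000 per well and kept in low serum for 24 h without doxycycline. Medium, doxycycline and seeding density all differ between these groups and cannot be told apart here. The other groups, uninduced cells in growth medium (GM no dox, 4 libraries) and induced cells in differentiation medium (DM +dox, replicates 2 to 4), serve as reference points. Their seeding density also followed the medium, at 75000 per well in GM no dox and 300000 per well in DM +dox.

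MyoD1 is a basic helix-loop-helix factor that pairs with E proteins such as Tcf3 and Tcf12 and binds E-boxes, short sites of the form CANNTG, with CAGCTG among its preferred sites. In cycling myoblasts its activity is held back by serum signals and by Id proteins, which tie up its partners. When serum is withdrawn, myoblasts leave the cell cycle, Id levels go down, and Myog, MEF2 factors and the genes of fusion and contraction come on. AP-1 factors, dimers of Fos and Jun proteins that bind TGACTCA, are activated by serum and mark many distal elements of cycling cells. ATAC-seq reads open chromatin by letting Tn5 transposase cut accessible DNA.

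The deposited peak lists held 58587, 47247, 45087 and 36531 peaks in the GM +dox libraries and 23690, 24181 and 40599 in the DM no dox libraries. The mean log2 number of peaks was 0.69 lower in DM no dox (log2 difference -0.69), with a two-sided exact permutation p of 0.114. Only 35 labellings of 4 against 3 libraries exist, so no two-sided exact p can go below 0.0571 and no one-sided one below 0.0286. Background coverage, worked out from the peak scores, spanned 0.377 to 0.866 fragments per base in GM +dox and 0.511 to 0.901 in DM no dox. To keep list length out of the comparison, only the 14710 peaks of highest MACS2 significance were kept from every list, which is the length of the shortest of the 14 lists kept. DM no dox replicate 1, with 1287 peaks, and DM +dox replicate 1 were left out as the quality outliers of the study. The replicates are labelled as biological. Peaks of the 14 cut lists merged into 26213 regions with a median width of 620 bp, of which 22983 held a peak in at least 1 of the 7 libraries and 7642 in all of them. Among the markers of the cells, Myod1 had a peak in all 7 cut lists, whereas Myf5, Des and Myog had none in any. Myog had a weaker peak in the full lists of 2 of 4 GM +dox and 0 of 3 DM no dox libraries. Weaker peaks also stood at Des in 4 of 4 and 3 of 3 libraries, and at Myf5 in 3 of 4 and 1 of 3. The full DM no dox lists were mostly shorter, which left less room for weak peaks. Of 17 markers of blood, endothelium, epithelium, neurons and liver, 3 to 8 had a peak in a GM +dox cut list and 1 or 2 in a DM no dox cut list, with summed scores (defined with the genes) of 41.5 to 155 and 19.9 to 44.2. Ptprc, Cd3e, Cdh5, Tie1, Epcam, Snap25 and Alb were among those at 0 in all 7. Among the others, Hnf4a had a peak in all 3 DM no dox and no GM +dox cut list (mean score 23.8 against 0). Rbfox3 had one in all 4 GM +dox and no DM no dox cut list (20.8 against 0). The part of these markers in the results was not tested.

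The sequences below belong to the regions that set the groups apart most clearly. A region was counted as all-or-none when it held a peak in every library of one group and in no library of the other. The all-or-none regions shown were among those that stood highest in the lists that had them. Only regions with a marked site are shown. D1 and D3 were present in DM no dox and G1 and G2 in GM +dox. GR1, near the chemokine receptor gene Cxcr4, was present in all 7 lists but at very different strength. Each line gives the bases up to 100 bp either side of the peak summit, read 5′ to 3′ on the plus strand of mm10 (GRCm38). Capitals mark the MyoD-type E-boxes CAGCTG and CAGGTG and the AP-1 site TGACTCA, which appears as TGAGTCA where it lies on the other strand. The windows are chr15:77879853-77880053 (D1), chr15:62569462-62569662 (D3), chr4:136518213-136518413 (G1), chr11:79611167-79611367 (G2) and chr1:128508893-128509093 (GR1).
D1: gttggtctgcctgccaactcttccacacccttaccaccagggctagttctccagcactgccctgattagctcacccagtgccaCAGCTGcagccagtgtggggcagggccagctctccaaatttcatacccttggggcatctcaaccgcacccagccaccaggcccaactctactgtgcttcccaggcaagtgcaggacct
D3: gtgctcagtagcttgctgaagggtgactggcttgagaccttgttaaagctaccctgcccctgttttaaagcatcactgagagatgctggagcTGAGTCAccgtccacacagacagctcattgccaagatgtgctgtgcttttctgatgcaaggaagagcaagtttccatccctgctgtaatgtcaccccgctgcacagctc
G1: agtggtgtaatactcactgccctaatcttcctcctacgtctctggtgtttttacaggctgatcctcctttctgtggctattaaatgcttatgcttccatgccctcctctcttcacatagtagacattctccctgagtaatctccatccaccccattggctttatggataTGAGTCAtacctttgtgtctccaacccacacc
G2: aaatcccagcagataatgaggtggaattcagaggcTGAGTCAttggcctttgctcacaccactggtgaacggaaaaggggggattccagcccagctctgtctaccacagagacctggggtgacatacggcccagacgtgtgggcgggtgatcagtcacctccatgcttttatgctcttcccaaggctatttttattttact
GR1: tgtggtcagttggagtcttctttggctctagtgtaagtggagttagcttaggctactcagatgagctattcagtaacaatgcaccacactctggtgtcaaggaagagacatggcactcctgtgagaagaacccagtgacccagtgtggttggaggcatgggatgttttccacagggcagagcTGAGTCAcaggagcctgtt
D1 holds 1 CAGCTG. D3, G1, G2 and GR1 each hold 1 AP-1 site and neither of these E-boxes. Of the leading regions described below but not shown, D2, D5, G4, G5 and G6 hold none of the marked sites. G3, of GM +dox, holds CAGCTG, and D6, of DM no dox, holds CAGCTG and an AP-1 site. These are descriptions of single regions, and the shares over all regions are given with the motifs.

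Induced cells in growth medium and serum-withdrawn cells shared most of their open regions, and libraries of one group were on average more alike than libraries across groups. The Jaccard index, the shared regions of 2 lists divided by the regions in either, averaged 0.616 between the groups, with a range of 0.570 to 0.675 over 12 pairs. Within GM +dox it averaged 0.668 (0.618 to 0.714, 6 pairs) and within DM no dox 0.670 (0.656 to 0.697, 3 pairs). The ranges overlapped, yet pairs from the same group were on average 0.0527 more alike than pairs across groups, and no other labelling of the 7 libraries gave a larger value (one-sided exact permutation p = 0.0286). Leaving out any 1 library kept the difference between 0.0451 and 0.0678, where the exact p, 0.0667 to 0.1, was the smallest the remaining libraries allow. In lists cut to 7355 peaks the difference was 0.0370 and the exact permutation p 0.114, so the call was lost there.

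**Figure D1:**
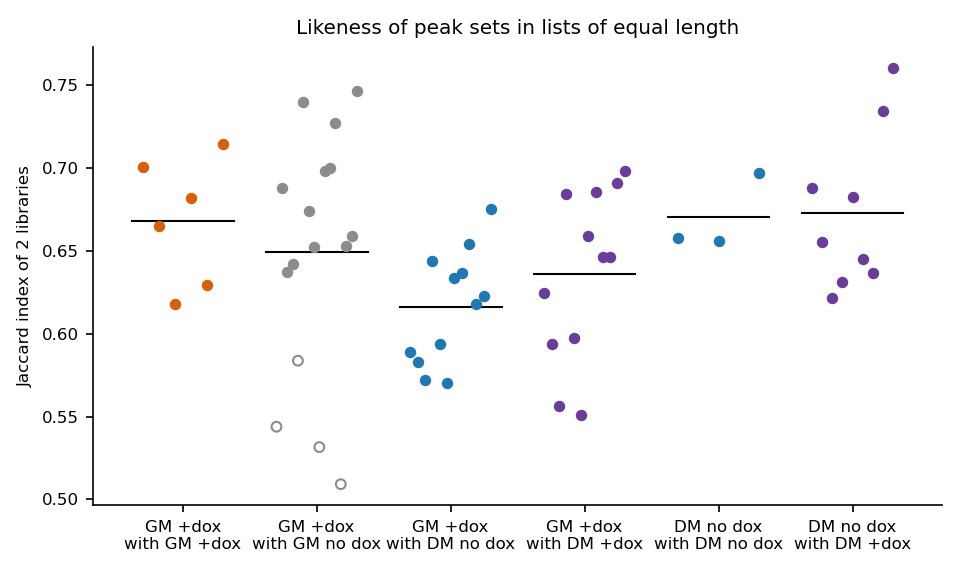
Jaccard index (vertical axis, 0 to 1 scale) of pairs of cut peak lists, each point being 1 pair of libraries (open points for pairs with GM no dox replicate 1) and each line the mean of its pairs, grouped by the groups of the 2 libraries. Pairs within GM +dox (mean 0.668) and within DM no dox (mean 0.670) sit higher on average than the 12 pairs between them (mean 0.616).

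The GM +dox lists were then set against both uninduced groups. The mean Jaccard index with the 4 GM +dox lists was 0.542, 0.695, 0.667 and 0.692 for GM no dox replicates 1 to 4 and 0.621, 0.609 and 0.618 for DM no dox replicates 2 to 4. GM no dox replicates 2 to 4 lay above every DM no dox library and replicate 1, the library with the shortest list, lay below them all. The group difference of 0.0329 had a two-sided exact permutation p of 0.514. Without GM no dox replicate 1 it was 0.0685 (exact p = 0.1, the smallest that 3 against 3 allows), so this library decides its size. DM +dox lists, which share the induction, had mean indices of 0.653, 0.642 and 0.613 with GM +dox. With DM no dox, which shares the medium and the seeding density, they averaged 0.673 over pairs of 0.622 to 0.760.

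Serum-withdrawn cells had 259 regions with a peak in all 3 DM no dox and none of the 4 GM +dox cut lists, 1.13% of the 22983 regions. Induced cells in growth medium had 315 such regions in the opposite direction, 1.37%. These counts describe the libraries and carry no test. Their balance rests on the cut, since with all deposited peaks, where GM +dox lists are longer, they were 68 and 2161, and in lists of 7355 peaks 112 and 145. Most of these regions were not without a peak in the other group. Of the 259, 195 held a weaker deposited peak in all 4 GM +dox libraries and 3 in none. Of the 315, 88 held a weaker peak in all 3 DM no dox libraries and 16 in none, although the shorter DM no dox lists left less room for weak peaks (158, 152 and 291 of 315 for replicates 2, 3 and 4). Leaving out 1 library loosens the definition and raised the counts to 318 to 553 and 378 to 576. The count of 259 moved by over 1.5 times without GM +dox replicate 4 (409) or DM no dox replicate 2 (553), 3 (445) or 4 (491), and that of 315 without GM +dox replicate 4 (576) or DM no dox replicate 2 (560).

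The leading regions of serum withdrawal lay mostly outside promoters. D1 (chr15:77879670-77880184) was between genes, 35.7 kb from the start of Txn2, a mitochondrial thioredoxin gene. Its percentile rank within the cut lists, where 100 is the strongest peak, was 82.0, 84.0 and 88.4 in DM no dox, and in GM +dox it lay at ranks 24081, 34458, 21898 and 21128 of the full lists. D2 (chr15:77815662-77816336), on the same chromosome, was in an intron of Myh9, the gene of a non-muscle myosin heavy chain, 2.80 kb from its start. D2 had percentiles of 73.2, 97.5 and 82.5 in DM no dox. D3 (chr15:62568904-62569992), in an intron of the predicted gene Gm41333 and 582 kb from Myc, had 81.0, 81.0 and 89.2. D1, D2 and D3 also had a peak in 3 of 3 DM +dox cut lists, but in only 2, 2 and 1 of 4 GM no dox lists. D5 (chr19:27260073-27261016) lay 21.6 kb from Vldlr, a lipoprotein receptor gene, and was in 2 of 3 DM +dox and 1 of 4 GM no dox lists. D6 (chr11:86691288-86692100), in a UTR exon of Ptrh2, was in 3 of 3 DM +dox and 0 of 4 GM no dox lists. The remaining region of the 6 leading ones, whose position is not reported here, did not follow this, with 2 of 3 DM +dox and 3 of 4 GM no dox lists.

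The leading regions of induced growth medium cells were mostly intronic. G1 (chr4:136517873-136518559) lay in Luzp1, which encodes an actin-associated protein, with percentiles of 93.8, 98.3, 90.1 and 53.0 in GM +dox and deposited ranks of 15982, 22306 and 20451 in DM no dox. It was the strongest all-or-none region of either direction, although GM +dox replicate 4 ranked it far below the other 3 libraries. G2 (chr11:79610906-79611669) lay in Rab11fip4, an effector of the recycling GTPase Rab11, with percentiles of 93.7, 95.4, 70.3 and 57.6. G4 (chr5:139099192-139100224) lay in Prkar1b, a regulatory subunit of protein kinase A, with 84.3, 88.7, 74.3 and 52.6. G3 (chr6:94603881-94604770) was in a UTR exon of Slc25a26 and 1.16 kb from the start of Lrig1, which encodes a negative regulator of ErbB receptors. G5 (chr4:57543685-57544251) and G6 (chr3:121481476-121482111) were in introns of Palm2 and Slc44a3. G1, G2, G4, G5 and G6 were open in 4 of 4 GM no dox lists and G3 in 3, whereas all but G1 were in 1 of 3 DM +dox lists, that of replicate 2, and G1 in 2. Uninduced growth medium cells thus had the leading GM +dox regions as well.

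**Figure D2:**
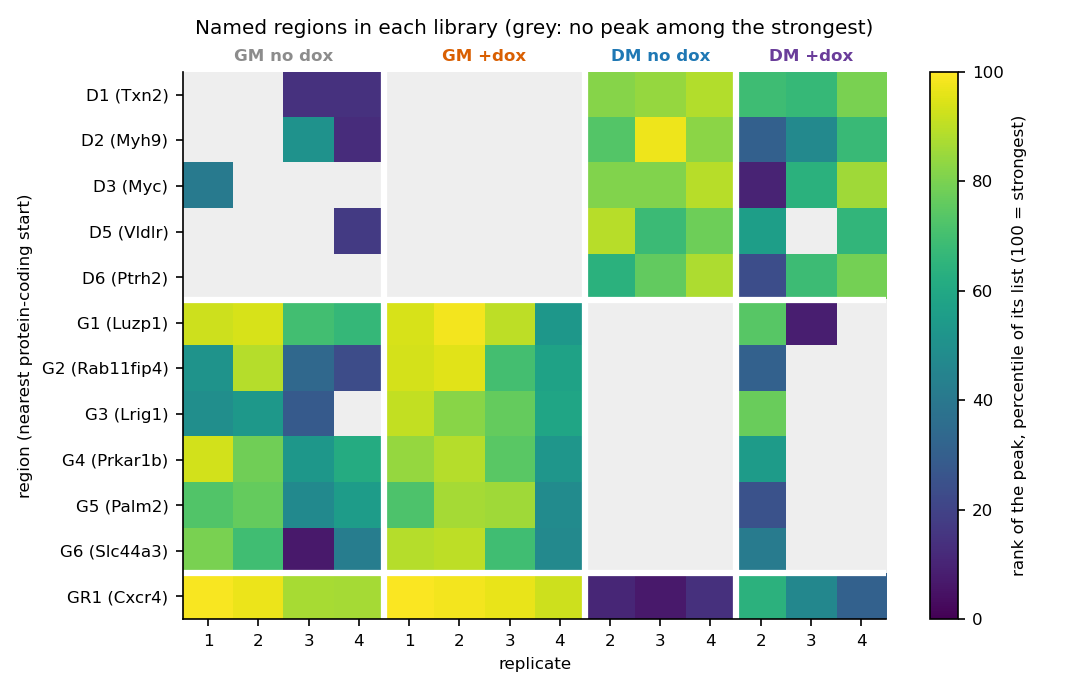
Percentile rank (0 to 100, 100 being the strongest peak of a cut list) of the leading all-or-none regions and of the region near Cxcr4 (rows) in each library (columns, by group and replicate number), with grey cells where the cut list has no peak. The 5 DM no dox regions shown (a further leading region is left out) were in 2 or 3 of 3 DM +dox lists and 0 to 2 of 4 GM no dox lists, and the 6 leading GM +dox regions in 3 or 4 of 4 GM no dox lists.

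The same was true of the whole sets. At the 259 regions of serum withdrawal, a peak was present at 44.4, 56.4 and 63.7% of regions in DM +dox replicates 2 to 4 (54.8% ± 9.74, SD, n = 3) and at 27.4, 15.4, 22 and 19.3% in GM no dox replicates 1 to 4 (21% ± 5.03, SD, n = 4). At the 315 regions of induced growth medium cells the order turned around, with 50.2, 26 and 22.2% in DM +dox (32.8% ± 15.1, n = 3) and 53.0, 75.2, 67.6 and 68.3% in GM no dox (66.0% ± 9.34, n = 4). No library of either group overlapped the other at either set. The contrast, the DM +dox minus GM no dox difference at the first set less that at the second, was 67.0 percentage points (one-sided exact permutation test, p = 0.0286) over libraries that had no part in choosing the regions. Fold enrichment in place of significance as the ranking gave 41.4 points and p = 0.0571 in the same exact test, and without DM no dox replicate 4, which changes the regions, the contrast was 42.6 points (exact p = 0.0286). Single regions often did not follow this cleanly. Of the 259, 37 were in every DM +dox and no GM no dox list, 0 the reverse, and 29 in no list of either. Of the 315, 49 were in every GM no dox and no DM +dox list, 3 the reverse and 7 in none.

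Read the other way round, the regions that differed between DM +dox and GM no dox can be followed in GM +dox and DM no dox cells. Medium, doxycycline and seeding density all differ between DM +dox and GM no dox. DM no dox shares both medium and density with DM +dox, so the parts of these 2 cannot be told apart. Against GM no dox, DM +dox cells had 385 all-or-none regions that were higher (1.62% of 23708 regions) and 392 that were lower (1.65%). At the 385 higher regions, a peak was present at 29.6, 23.1, 21.6 and 31.7% in GM +dox (26.5% ± 4.91, n = 4) and at 50.1, 46.0 and 58.4% in DM no dox (51.5% ± 6.35, n = 3). At the 392 lower regions it was 78.3, 82.7, 64.5 and 49.0% in GM +dox (68.6% ± 15.2) and 48.5, 40.6 and 25.0% in DM no dox (38% ± 11.9). Every DM no dox library thus had more of the gained (higher) regions than any GM +dox library, with means 25.0 points apart. It also had fewer of the lost (lower) ones, by a difference of -30.6 points in the means. Each difference had a two-sided exact permutation p of 0.0571, the smallest possible, as did the contrast of 55.6 points. Ranked by fold enrichment the contrast was 35.9 points, with the same exact p. Of the 385 gained regions, 37 were in every DM no dox and no GM +dox list, 3 the reverse, 3 in all 7 and 45 in none. Of the 392 lost regions, 49 were in every GM +dox and no DM no dox list, 0 the reverse and 22 in all 7. By a split chosen after seeing the data, gained regions with CAGCTG (156) were present at 28.5% in GM +dox and 53.4% in DM no dox and those without it (229) at 25.1% and 50.2%. The 2 differences differed by -0.216 points (two-sided exact permutation p = 0.971).

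**Figure D3:**
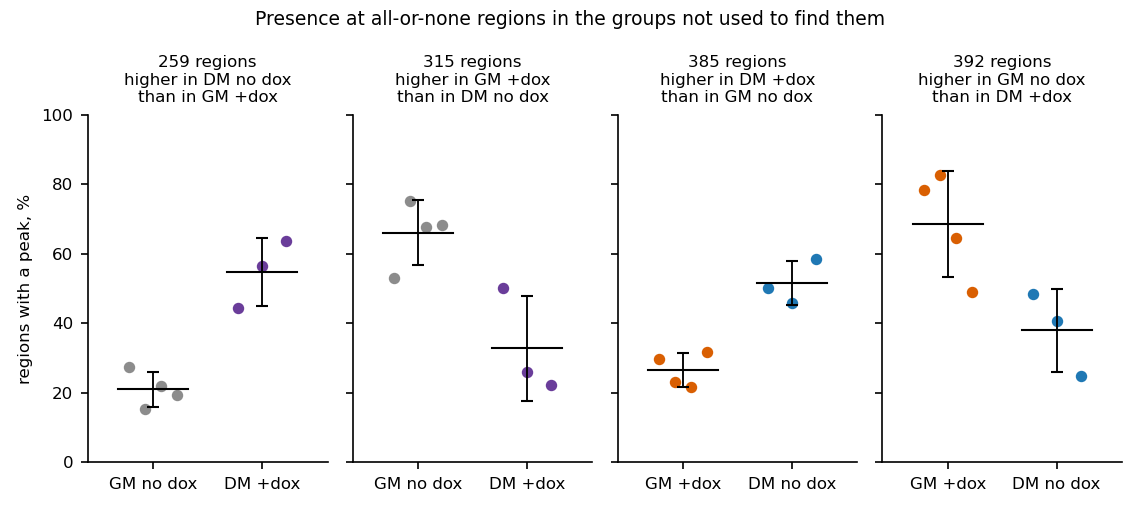
Percent of regions with a peak (vertical axis, 0 to 100%) in each library (points) with the group mean and SD (lines and error bars), at the regions higher and lower in the direct comparison, read in GM no dox and DM +dox, and at the regions higher and lower in DM +dox than in GM no dox, read in GM +dox and DM no dox. At the 385 regions higher in DM +dox, GM +dox libraries sit between 21.6 and 31.7% and DM no dox libraries between 46.0 and 58.4%.

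The shares of peaks with each motif were compared next, and none of the 10 passed the adjusted test. CAGCTG was found within 100 bp of the summit in 18.3, 17.0, 16.5 and 17.3% of GM +dox peaks and in 17.5, 17.3 and 18.1% of DM no dox peaks. The groups overlapped, and the difference in means was 0.314 points (two-sided exact permutation p = 0.629, 0.698 after Benjamini-Hochberg adjustment over 10 motifs). Without 1 library it ran from 0.0612 to 0.650 points, and among distal peaks only it was 1.59 points (exact p = 0.286). Both groups lay above every GM no dox list (15.4 to 16.2%) and below every DM +dox list (18.5 to 20.8%). CAGGTG, another E-box, was found in 7.17, 6.83, 6.93 and 7.26% of GM +dox and 8.24, 7.80 and 7.86% of DM no dox peaks. Here every DM no dox library was above every GM +dox library, with the smallest possible two-sided exact permutation p (0.0571, adjusted 0.19), and DM +dox lists lay higher still (9.24 to 9.62%). GM no dox lists spanned 6.55 to 8.35%, so 1 of them exceeded every DM no dox list. Among distal peaks the CAGGTG difference was 1.39 points, again at an exact p of 0.0571. The MEF2 and CArG sites, bound by MEF2 factors and SRF, were rarer in DM no dox. MEF2 sites were found in 1.31, 1.58, 1.16 and 1.09% of GM +dox peaks against 1.03, 0.891 and 0.925%, and CArG boxes in 1.22, 1.23, 1.20 and 1.09% against 1.09, 1.07 and 1.05% (exact permutation p = 0.0571, adjusted 0.19, for each). For both sites, every DM no dox library also lay below every GM +dox library among distal peaks. No motif passed an adjusted 0.05, which the design cannot reach.

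Over all peaks, sites of serum-linked factors had a wide spread within GM +dox, and the groups overlapped. AP-1 sites were found in 31.3, 29.8, 27.5 and 23.4% of GM +dox and 26.3, 28.5 and 24.8% of DM no dox peaks (two-sided exact permutation p = 0.629). GGAATG, the site of TEAD factors that work with YAP, was found in 17.9, 18.1, 17.3 and 14.8% against 16.0, 14.9 and 13.0% (exact p = 0.171). For RUNX (TGTGGT) the means were 22.3 and 20.3%, for NFY (CCAAT) 30.1 and 30.4%, for SP/KLF (GGGCGG) 34.4 and 36.4% and for any E-box (CANNTG, which also counts CAGCTG and CAGGTG) 57.6 and 58.2%, with exact permutation p from 0.114 to 0.743. Among distal peaks the CANNTG difference was 2.27 points, with every DM no dox library above every GM +dox library (exact p = 0.0571, adjusted 0.114). The distal RUNX difference was -2.07 points, with every DM no dox library below every GM +dox library (exact p = 0.0571, adjusted 0.114). All motifs were searched on both strands. Promoter peaks, those with a summit at most 1 kb from a gene start, moved along with these numbers. They made up 42.7, 42.5, 50.5 and 54.0% in GM +dox and 48.2, 48.7 and 54.5% in DM no dox (exact p = 0.457), and the distal values given here show the motifs without these peaks.

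**Figure D4:**
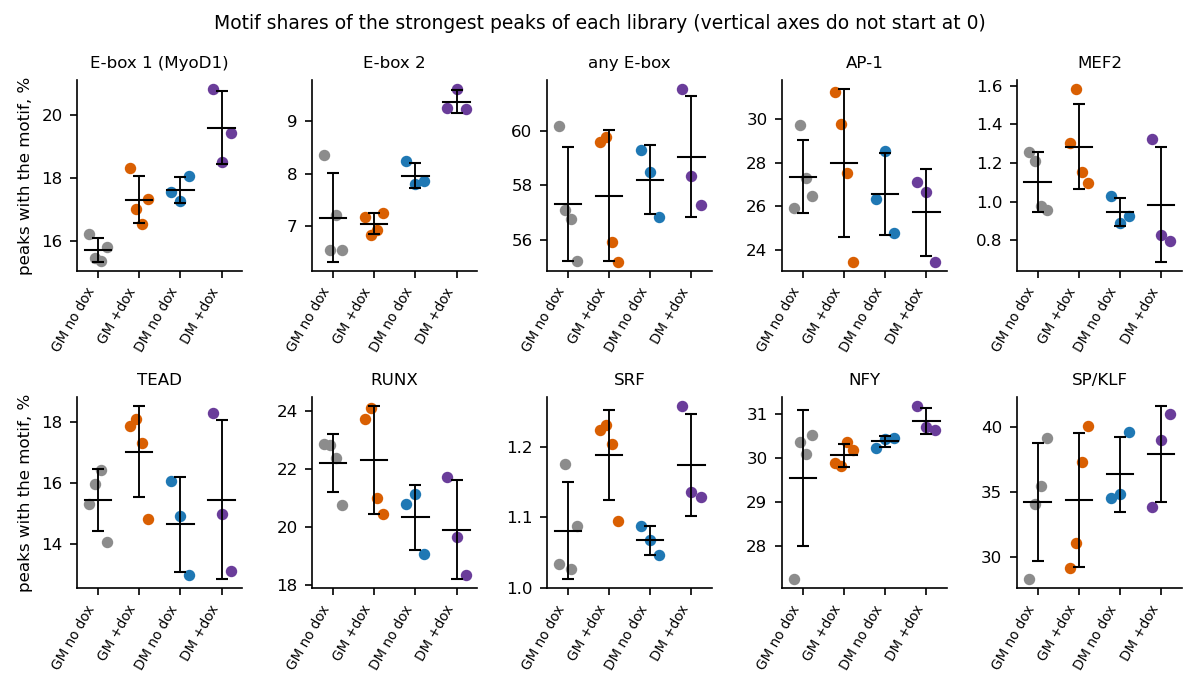
Percent of the 14710 peaks of each cut list with each motif within 100 bp of the summit (vertical axis of each panel, points being libraries, lines group means and error bars SD, with axes that do not start at 0) in the 4 groups. For E-box 1, which is CAGCTG (E-box 2 is CAGGTG), GM +dox (16.5 to 18.3%) and DM no dox (17.3 to 18.1%) overlap, between GM no dox (15.4 to 16.2%) and DM +dox (18.5 to 20.8%).

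The all-or-none regions themselves were mostly distal. Of the 259 regions of serum withdrawal 20.1% and of the 315 of induced growth medium cells 16.8% lay within 1 kb of a start, against 41.6% of all 22983 regions. GC content had a median of 49.8 and 52.2% against 54.7%, and SP/KLF sites, common in promoters, were held by 11.2 and 14% against 30.0%. CAGCTG was held by 23.9% of the first set, 21.6% of the second and 18.2% of all regions, and CAGGTG by 9.65, 4.76 and 7.97%. TEAD sites were held by 11.6, 28.6 and 16.7%, RUNX sites by 26.3, 37.1 and 22.8% and AP-1 sites by 34.7, 38.1 and 28.9%. TEAD and RUNX sites were thus more frequent in the regions of growth medium than in those of serum withdrawal, as a description with no test. The regions higher in DM +dox than in GM no dox differed from both sets, with CAGCTG in 40.5% and CAGGTG in 21.8%.

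Across all 2080 hexamers (6-base words counted with their reverse complements), 0% were called higher in either group by limma with Benjamini-Hochberg adjustment, and 33 had an unadjusted p under 0.05. CAGGTG, counted with its reverse complement, led the DM no dox side in the limma fit, with a log2 difference of 0.18 ± 0.046 (SE) and an adjusted p of 1.00. The next by p were TTGCAA (log2 difference 0.20) and GCGTTA, followed by CACGTG (0.24) and then by GTTGCA. On the GM +dox side AGTGGG led (log2 difference -0.11), followed by GTGGGA, then by ACCCAC, then by CCCACA and then by ACCCCT, with no MyoD-type E-box among them. With distal peaks only, the smallest adjusted p was 0.0964, with 188 hexamers under an unadjusted 0.05.

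Among the 7642 regions with a peak in all 7 cut lists, 1 passed the adjusted test on strength. limma on the percentile ranks called 0 regions higher in DM no dox (0%) and 1 higher in GM +dox (0.0131%), with 700 at an unadjusted p under 0.05. The called region, GR1 (chr1:128508787-128509360), was between genes, 83.3 kb from the start of Cxcr4, which encodes a chemokine receptor. Its percentiles were 99.4, 98.4, 96.7 and 92.4 in GM +dox and 10.9, 6.88 and 13.9 in DM no dox, a difference of -86.2 ± 12.1 (SE, adjusted p = 0.00394). In uninduced growth medium it ranked 99.0, 96.9, 86.8 and 86.4, with replicates 3 and 4 below every GM +dox library, and in DM +dox 64.1, 46.2 and 31.2, between GM +dox and DM no dox. The groups did not overlap, and the difference held near that size without any 1 library (-87.8 to -84.3). The number of called regions depended on the lists. Over the whole deposited lists, which differ in length, 19 regions were called higher in DM no dox and 896 in GM +dox, and with regions in at least 5 of 7 lists 1 and 23. Calls in GM +dox numbered 0 in lists of 7355 peaks, 9 on log2 fold enrichment, 0 without GM +dox replicate 3, 16 without DM no dox replicate 2 and 3 without DM no dox replicate 4.

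For genes, each library was given a score, the sum of the percentile ranks of the peaks in a gene or within 10 kb of it, so that a gene with several strong peaks can exceed 100. The score takes in peaks of close neighbours and says nothing of transcription. limma with Benjamini-Hochberg adjustment over 10215 genes called 0 genes (0%) in either direction, the smallest adjusted p being 0.114, while 1095 genes (10.7%) had an unadjusted p under 0.05. The scores of all DM no dox libraries lay above those of all GM +dox libraries for 687 genes (6.73%) and below for 424 (4.15%). Over all genes the median difference, DM no dox minus GM +dox, was 4.19, with 6189 above 0 and 4026 below. An all-or-none region lay in or within 10 kb of 212 of 12896 genes with a peak in the DM no dox direction (1.64%) and of 258 in the GM +dox direction (2.00%). The named lists, 222 genes in 17 lists, are described against these numbers.

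The regulators of the muscle lineage had differences on both sides of 0. Of 15 genes 10 had a peak in any of the 7 cut lists and 8 were in the fit, with 4 differences above 0 and 4 below (median -3.17) and no gene whose groups did not overlap. Myod1 itself scored 68.9, 69.8, 91.0 and 73.5 in GM +dox and 49.7, 109 and 69.1 in DM no dox, a difference of 0.25 ± 14.5 (SE). These are peaks at the endogenous gene, whereas the induced Halo-MyoD1 came from a transgene. Prdm1, a transcriptional repressor with roles in muscle fibre identity, scored 56.5, 62.7, 39.7 and 33.0 against 114, 135 and 61.8. Its groups overlapped, by a single DM no dox library, and the difference of 55.7 ± 17.6 did not pass (adjusted p = 0.308). With all deposited peaks it was -14.1. It was the only gene of the 17 lists with a positive difference at an unadjusted p under 0.05. Mef2a, of the MEF2 family, differed by 57.8 ± 28.2 (adjusted p = 0.505). Myf5, Myf6, Myog, Mef2c and Pax3 had no peak in any of the 7 cut lists.

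Among the fusion genes, Cdh15 had peaks in 1 group only in the cut lists. It encodes M-cadherin, an adhesion protein of myoblasts that the study also picked among its adhesion genes. Cdh15 had 1, 2, 3 and 3 peaks in the GM +dox cut lists and 0, 0 and 0 in DM no dox, with scores of 68.1, 104, 43.6 and 48.3 against 0 in all 3. With no peak in 3 libraries it was not in the fit and has no test. Its all-or-none region (chr8:122851575-122852238) lay in an intron 3.91 kb from the start, held a CAGCTG site, and ranked 4693, 3290, 10247 and 10212 in GM +dox. A weaker peak stood there in the full lists of all 3 DM no dox libraries, at ranks 17266, 22385 and 31455. It was in the cut lists of 4 of 4 GM no dox and 1 of 3 DM +dox libraries. An overlapping read-through model, Gm20388, shares these peaks.

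Dysf, a membrane repair gene counted among the fusion genes, scored 82.4, 115, 62.1 and 68.1 in GM +dox and 55.7, 0 and 0 in DM no dox (difference -63.3 ± 18.7, adjusted p = 0.281). Its groups did not overlap, and its all-or-none region lay in an intron (chr6:84124645-84125277). Dysf had a peak in only 1 DM no dox list, so it met the fit's filter of a peak in 5 of 7 lists through GM +dox. Of the 13 fusion genes 8 had a peak and 7 were in the fit, with 2 differences above 0 and 5 below. Mymx, which encodes the fusion peptide myomixer, had 1 peak in each of the 7 lists and a difference of -3.22 ± 12.8. Mymk, its partner, had none in the cut lists and a weaker peak in the full lists of 4 of 4 GM +dox and 1 of 3 DM no dox libraries. The full DM no dox lists were mostly shorter, so such counts depend on list length.

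The contractile genes were mostly missing from the strongest peaks of both groups. Of 30 sarcomere genes 17, including Actc1, Ckm, Des, Ttn and Myh1, had no peak in any of the 7 cut lists, and 9 were in the fit, with 5 differences above 0 and 4 below (median 0.49). Tnnt1, slow skeletal troponin T, scored 0, 0, 17.0 and 11.8 in GM +dox and 24.2, 18.4 and 25.3 in DM no dox. The groups did not overlap, yet the difference of 15.4 ± 7.75 did not pass (adjusted p = 0.515). Ldb3, a Z-disc gene, pointed the other way, with 82.6, 57.8, 71.8 and 87.8 against 0, 42.9 and 46.0 (difference -45.4 ± 14.4, adjusted p = 0.309). In the acetylcholine receptor list all 7 genes had a peak and 0 of 6 in the fit had an unadjusted p under 0.05. Chrna1, the receptor's alpha subunit, differed by -5.74 ± 19.4 and Chrng, the fetal gamma subunit, by 7.99 ± 13.4.

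By its fitted genes, the list of excitation and calcium handling was the muscle list furthest to the GM +dox side, with all 6 fitted differences below 0 and a median of -32.6. Another 4 genes with a peak missed the filter of 5 of 7 lists, and all 4 had a higher mean score in DM no dox, such as Hrc with 11.9 in GM +dox and 19.9 in DM no dox. The filter is uneven, since 4 GM +dox lists and 1 DM no dox list meet it, whereas 3 DM no dox lists and 1 GM +dox list do not. Cacna1s and Cacng1 passed it with a peak in 1 DM no dox list, as did Dysf, Alpl and Celsr1 of other paragraphs. Jph2, whose protein joins the sarcoplasmic reticulum to the plasma membrane, scored 209, 180, 184 and 185 in GM +dox and 102, 95 and 71.4 in DM no dox. Its groups were far apart, a difference of -100 ± 13.9, but it shared the smallest adjusted p of the fit, 0.114, and did not pass. Atp2a2, the calcium pump of slow muscle and other cells, scored 65.8, 95.7, 112 and 75.7 against 51.3, 36.6 and 0 (difference -58.0, adjusted p = 0.258). With peaks within 2 kb of Atp2a2 only, the difference was -3.25. Cacna1s, the voltage sensor of the muscle calcium channel, scored 60.1, 16.9, 41.3 and 64.2 against 0, 0 and 20.9, with overlap (adjusted p = 0.364). The summed scores of the 14 genes were 395 to 536 in GM +dox libraries and 197 to 306 in DM no dox.

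The Id genes, whose products restrain MyoD1 in cycling cells, had their lowest DM no dox values, relative to GM +dox, at Id1 and Id2. Id1 scored 89.5, 96.1, 84.5 and 82.6 in GM +dox and 16.9, 27.1 and 45.9 in DM no dox (difference -58.2 ± 9.99, adjusted p = 0.124). Its all-or-none region (chr2:152734959-152735413) lay 1.09 kb from the start and was in 2 of 4 GM no dox and 1 of 3 DM +dox cut lists. Id2 scored 105, 111, 73.5 and 136 against 40.4, 41.7 and 86.6, with overlap (difference -50.3 ± 17.1, adjusted p = 0.342). Id3 and Id4 differed by -22.5 ± 21.9 and 6.37 ± 15.4. Of these 4 genes, none passed the adjusted test.

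The cell cycle lists had no gene past the adjusted test. The exit list, which includes the CDK inhibitors, had 5 of 8 differences above 0 (median 10.9) and 0 genes at an unadjusted p under 0.05. Cdkn1a, the inhibitor p21 that MyoD1 is known to raise, differed by 21 ± 28.9. The proliferation list had 7 of 15 above 0 (median -0.77), and its 3 genes at an unadjusted p under 0.05 all had lower scores in DM no dox. Hmga2, a chromatin protein of undifferentiated cells, scored 216, 176, 195 and 172 against 155, 132 and 164 (difference -39.6 ± 16.2), and ranked by fold enrichment its difference was 6.82, in the opposite direction. Igf2bp2, an RNA-binding protein of growing myoblasts, differed by -91.9 ± 33.0 and Myc by -44.2 ± 18.5, both with overlap. Their adjusted p, with limma, ran from 0.381 to 0.458. Igf2bp3, a relative of Igf2bp2, had an all-or-none region of GM +dox (chr6:49111023-49111475) 0.248 kb from its start, found in 3 of 4 GM no dox and 0 of 3 DM +dox lists.

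The AP-1 genes had differences on both sides of 0. Of 8 in the fit, 5 had differences above 0 and 3 below (median 10.6). Junb scored 444, 415, 447 and 414 in GM +dox and 308, 325 and 306 in DM no dox, with no overlap (difference -117 ± 26.5, adjusted p = 0.194). With peaks ranked by fold enrichment in place of significance the Junb difference was 32.5, so its direction depends on the ranking. With peaks within 2 kb of Junb only, the difference was -2.12, so nearly all of it came from peaks 2 to 10 kb away. Its all-or-none region (chr8:84981040-84981445), 2.53 kb from the start, held both a CAGCTG and an AP-1 site and ranked 2528, 6685, 4375 and 7118 in GM +dox. It had a deposited peak in 1 of 3 DM no dox libraries, at rank 19978. Fos had an all-or-none region 1.69 kb from its start (chr12:85472072-85472598) that was in 4 of 4 GM no dox and 3 of 3 DM +dox lists. Jun and Fosl2 differed by 5.92 ± 8.36 and 15.3 ± 12.1.

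**Figure D5:**
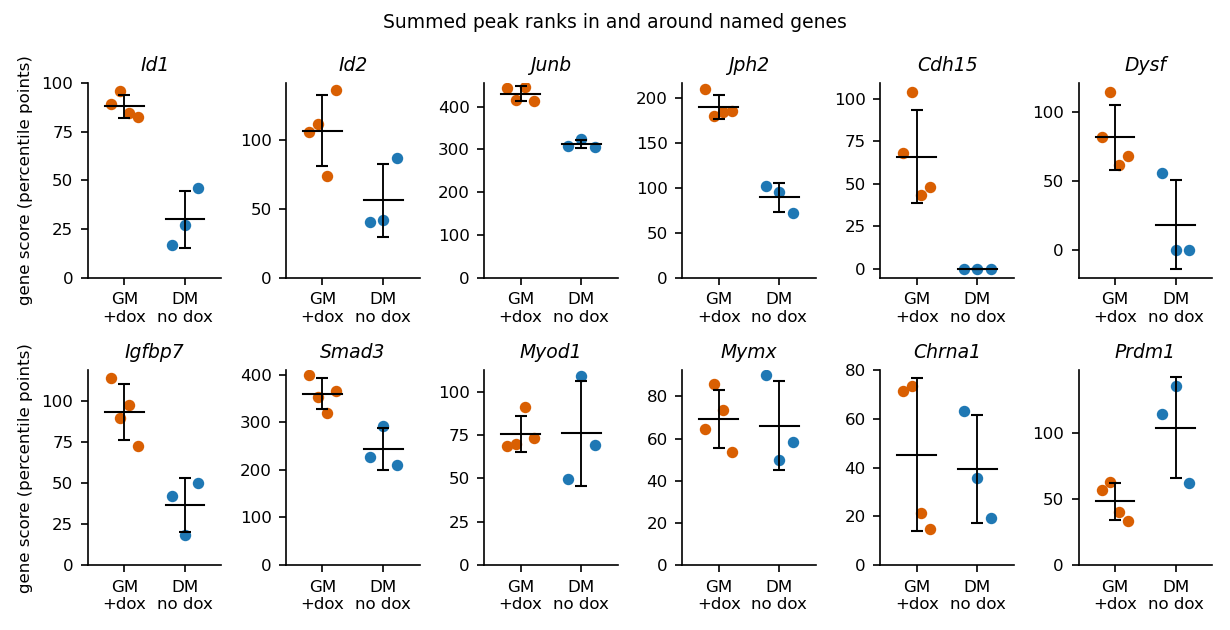
Gene score (sum of percentile ranks of the peaks in a gene or within 10 kb, vertical axis of each panel) in each GM +dox and DM no dox library (points) with group means and SD (lines and error bars) for 12 genes of the lists. Id1, Junb, Jph2 and Cdh15 have DM no dox values below every GM +dox value, whereas Myod1, Mymx and Chrna1 overlap.

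The signalling and matrix lists had no gene past the adjusted test, and their differences lay on both sides of 0. In the serum response and YAP list 4 of 12 differences were above 0 and 8 below (median -15.3). Ccn2, a classic YAP target, differed by -74.0 ± 37.9 (adjusted p = 0.521). In the TGF-beta and BMP list 7 of 13 were above 0, and Smad3, which carries the TGF-beta signal to the nucleus, scored 399, 354, 320 and 366 against 227, 293 and 210 (difference -116 ± 30.0, adjusted p = 0.242). Ranked by fold enrichment the Smad3 difference was -4.80. In the IGF list Igfbp7, which encodes a secreted IGF-binding protein, scored 114, 89.9, 97.8 and 72.9 against 42.3, 18 and 49.8 (difference -57.0 ± 12.7, adjusted p = 0.191, and -37.8 ranked by fold enrichment), while 4 of the 6 differences of that list were above 0. In the Notch list 1 of 7 was above 0 (median -16.5), with 0 genes at an unadjusted p under 0.05. Of its genes outside the fit, Jag1 and Hey1 had higher mean scores in DM no dox, and Dll1 and Heyl in GM +dox. Jag1 had a peak in all 3 DM no dox cut lists and none of the 4 GM +dox ones, with a mean score of 7.55 against 0. In the matrix list 4 of 13 were above 0 (median -7.37), and Col1a1, fibrillar collagen, differed by -56.6 ± 22.3 (adjusted p = 0.427), or -28.1 ranked by fold enrichment. Among 10 adipocyte and bone markers Alpl, the bone alkaline phosphatase gene, scored 57.2, 86.0, 38.2 and 59.1 against 0, 0 and 14.6 (difference -55.2 ± 12.8, adjusted p = 0.197), with an all-or-none region of GM +dox in an intron. Alpl had a peak in only 1 DM no dox list and, like Dysf, met the filter through GM +dox. Of the study's 5 adhesion genes, chosen by the study on cells of this series and therefore no independent evidence, 4 had a peak and both that were in the fit were below 0.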

How the data were processed

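Chromatin accessibility was measured by ATAC-seq. Per the methods of the study, the authors ran the nf-core/atacseq pipeline against mm10, with blacklisted regions removed. Peaks are from MACS2, with 1 narrow-peak list deposited for each library. How Tn5 offsets were handled is not given in the sources used here. The deposited lists give each peak a fold enrichment over background (a ratio, column 7), a −log10 p-value (column 8), a −log10 q-value (column 9) and a summit, and no read counts per region. Significance grows with sequencing depth, so only its order within a list was compared.

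Lists were cut to their 14710 strongest peaks by column 8, regions were merged from overlapping peaks, and a library's value at a region was its percentile rank. Peaks were assigned to GENCODE M21 genes within 10 kb, and sequence was read from GRCm38. Single values were compared by exact permutation tests over libraries. Regions, genes (a peak in at least 5 of 7 lists) and hexamers were fitted with limma 3.58.1 (trend, robust) in R 4.3.3 with Benjamini-Hochberg adjustment over all features fitted, at a threshold of 0.05, after tests on simulated data. The simulated gene fit recovered 24.5% of genes changed by 4 residual SD and 96% of those changed by 8, and the region fit 44% and 97.5%. Python 3.11.15, pandas 2.3.3, numpy 2.4.6, scipy 1.17.1 and matplotlib 3.10.9 did the rest.

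Regions named are, in each direction, up to 6 all-or-none regions with the best median rank in the group that has them and up to 6 regions or genes past the adjusted threshold without overlap of the groups. The 5 hexamers of smallest p in each direction and up to 5 members of each gene list are also named, except a few items that are not reported here, the list members being picked for this text with their values in view. The groups, members and lists were chosen with earlier results of these data known. Alternatives changed list length, the ranking measure, region width, filters, gene assignment and the libraries used. Intervals on counts were not possible, because depth is known only through estimated background coverage.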

Additional observations from a re-analysis of the deposited data

Results flagged for a closer look

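Among 39 values checked for a GM +dox or GM no dox library far from the other 3 of its group, 1 was set apart. The Jph2 score of GM +dox replicate 1 was 209.3, against 180 to 185 in replicates 2 to 4, and its gap to the nearest other library took up 0.832 of the group's range, just over Dixon's critical value for 4 samples. Chance alone sets apart about 1 in 20 such groups. Leaving this library out, as with any other, kept the Jph2 difference between -106 and -91.2.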

How the results depend on the processing

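Depth was known only as estimated background coverage, and weak peaks were listed more fully in the longer GM +dox lists, so all counts depend on where the lists were cut. With 4 against 3 libraries no two-sided exact test reaches 0.05. The alternatives within replicate numbers 1 and 2 or 3 and 4, with those numbers as a term, and leaving out libraries of the other groups were chosen after seeing the data.

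The separation of the peak sets was 0.0370 (exact permutation p = 0.114) in lists of 7355 peaks, 0.0839 within replicate numbers 1 and 2, 0.0581 within 3 and 4 (neither with a test), and 0.0451 to 0.0678 without 1 library. All-or-none regions of DM no dox numbered 68 with all deposited peaks, 112 in halved lists, 5 with DM no dox replicate 1 added and 318 to 553 without 1 library. Those of GM +dox numbered 2161, 145 and, without 1 library, 378 to 576. The contrast of the other groups at these regions was 41.4 points by fold enrichment (exact permutation p = 0.0571), 36.9 within numbers 1 and 2, 83.2 within 3 and 4, and 42.6 to 80.9 without 1 library.

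Motif differences turned sign for CAGCTG within numbers 1 and 2 (-0.129 points) and in halved lists (-0.0363). CANNTG turned within numbers 1 and 2 (-0.384), with all deposited peaks (-1.73), in halved lists (-0.139) and without GM +dox replicate 4 (-0.224 to 1.301 over single libraries left out). AP-1 turned within numbers 3 and 4 (1.18) and in distal peaks (0.403), SP/KLF likewise (-1.44 and -0.236), and the promoter share within numbers 3 and 4 (-0.673). The rank fit called 19 regions higher in DM no dox with all deposited peaks and 1 with regions in at least 5 of 7 lists. On the GM +dox side it called 896 and 23, 0 in halved lists, 9 on log2 fold enrichment and 0 to 16 without 1 library. The gene fit called 35 and 41 genes on numbers of peaks, where 72 of the 76 calls were genes without spread inside groups. It called 1 gene higher in GM +dox with the number term, and 0 to 2 genes higher in DM no dox without 1 library, the 2 being Cltc and Alk without DM no dox replicate 3. Differences turned sign for Prdm1 with all deposited peaks (-14.1), and for Hmga2 (6.82) and Junb (32.5) by fold enrichment.

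Same-numbered libraries of the groups correlated at 0.435, 0.0992 and 0.402 (replicates 2, 3 and 4) in their deviations from the group means. Different-numbered ones ran from -0.451 to -0.0177, except that GM +dox replicate 3 correlated best with DM no dox replicate 4 (0.122). The numbers were not taken as pairs in the main tests, although same-numbered libraries were mostly the more alike in these deviations. The labels name no batch, and whether the numbers mark one was not tested. With the replicate block, the log2 difference in peak number was -0.58 (exact sign-flip p = 0.5), the rank fit called 0 and 1 regions, and the gene and hexamer fits 0. Of 236 results for single genes under alternatives 232 kept their direction and side of the threshold, although some shrank to near 0 (Smad3 by fold enrichment, Junb and Atp2a2 within 2 kb), and the likeness to growth medium, peak number and presence at combined regions did so in all.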

Other observations

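Outside the gene lists, a few genes stood out and are named here after their values were seen. Alk, a receptor tyrosine kinase gene (chr17:71868972-72604627, minus strand), is long, and counts of regions per gene were not adjusted for gene length. It had 5 all-or-none regions of DM no dox and 0 of GM +dox, more than any other gene. Trib3, a pseudokinase gene of the stress response, had 2 such regions and scores of 76.6, 86.3, 64.6 and 55.7 in GM +dox against 153, 192 and 189 in DM no dox (difference 107 ± 13.8, limma adjusted p = 0.114). Dnaja2, a co-chaperone gene, scored 101, 57.6, 84.7 and 83.7 against 167, 178 and 175 (difference 91.2 ± 12.9, adjusted p = 0.114). In the other direction Celsr1, a cadherin of planar cell polarity, scored 95.7, 82.8, 113 and 104 in GM +dox against 0, 18.7 and 0 (difference -92.7 ± 10.9, adjusted p = 0.114). None passed the adjusted threshold.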
